A study of Mus musculus with 10 samples.

Results

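The 8 genes followed here encode the enzymes and partners of the Polycomb repressive complexes: Ezh2, Eed and Suz12 (the core of PRC2), Jarid2 and Mtf2 (accessory subunits of PRC2), Rnf2 and Ring1 (the ubiquitin ligases of PRC1) and Pcgf6 (the subunit that defines the variant complex PRC1.6). They were chosen by name, as the symbols of transcribed units (TUs) in the deposited annotation. Of the 8 symbols, 7 were found among 16137 TUs with a symbol, and 6 of these passed the filter on low counts. The TU that carries the symbol Rnf2 held too few fragments to be tested, and no TU carries the symbol Mtf2.

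The data are TT_chem-seq counts, a method in which RNA made during a short pulse of the uridine analogue 4SU is captured, so that a value reports ongoing transcription and not the amount of mature RNA. The cells were mouse embryonic stem cells of the line E14, genotype SOX2-FKBP, in which the pluripotency factor SOX2 carries a degron tag. They were grown in serum-free medium with LIF and inhibitors of MEK and GSK3-β. Cells given DMSO (NT, 0 h) and cells given 500 nM dTAG-13 for 0.5, 1, 2 or 6 h (hours post depletion, hpd) were labelled with 2 mM 4SU for 10 min, with 2 replicates per group and 10 libraries in all. All groups carried the tag, the tagged line is clonal, and untagged cells given dTAG-13 were not analysed here, so loss of SOX2 and other effects of dTAG-13 cannot be told apart. Nothing in the labels says that replicates were separate cultures, so the p-values measure the spread between these libraries, which may be technical.

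PRC2 places repressive methyl groups on histone H3 and PRC1 adds ubiquitin to histone H2A, and both hold developmental genes silent in stem cells. EZH2 carries the methyltransferase activity, EED binds the mark and stimulates the enzyme, and SUZ12 is the scaffold on which the complex assembles. JARID2 and MTF2 belong to alternative forms of PRC2 and help to recruit it to CpG-rich promoters. RNF2 (RING1B) and RING1 are interchangeable catalytic subunits of PRC1, and each PRC1 variant is named after its PCGF partner.

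Libraries held 11131490 to 25854106 fragments, and 28459 of 40779 TUs were tested. Naive stem cell markers, all 12 of them tested, summed to 5114 to 5591 CPM (fragments scaled to the TMM-adjusted library size) in NT and to 4281 to 4564 CPM after 6 h, where 7 of the 12 fell and 0 rose. Naive markers were above 0 in every library. Of 8 fibroblast markers, 3 had a TU and summed to 1.249 to 2.57 CPM in every library. Primitive endoderm markers (7 of 8 with a TU) summed to 76.7 to 78.9 CPM in NT, 57.3 to 61.4 CPM after 0.5 and 1 h, 69.6 to 71.4 CPM after 2 h and 97.4 to 110.4 CPM after 6 h. From NT to 6 hpd trophoblast markers (6 of 8) went from 51.5 to 53.4 CPM to 27.8 to 32.4 CPM and neural markers (5 of 8) from 131 to 137 CPM to 39.3 to 39.4 CPM. The neural and primitive endoderm sums follow mainly their most abundant genes. Over the same interval the mean of Ncam1 went from 89.37 to 11.32 CPM and that of Pax6 from 11.77 to 12.92 CPM. Dab2 went from 13.16 to 49.71 CPM and Lama1 from 60.02 to 46.89 CPM. After 6 h 0 of 5 tested neural markers rose and 3 fell. Of 6 tested primitive endoderm markers, 1 rose and 1 fell. In bulk libraries a change in the make-up of the culture and a change per cell cannot be told apart.

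Jarid2 was the only member that passed the test. Its nascent RNA followed a rising trend over the time course and was 1.52-fold higher after 6 h, while the genes of the PRC2 core and the tested PRC1 genes did not pass at any time. Inside the Jarid2 gene, a short TU without a symbol on the other strand fell from a mean of 1.54 CPM in NT to 0.222 CPM after 6 h, on 21 and 23 fragments in NT and 3 and 4 after 6 h, and it passed the count filter through libraries in which it was high. Around the members, the wider Polycomb machinery moved in both directions, with Phf19, Scmh1, Yaf2 and Bmi1 higher and Wdr5, Phc1, Fbrsl1 and Epop lower.

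The upstream sequences of Jarid2, which rose, and of the core subunits Ezh2 and Suz12, which did not pass, are given first, as the 250 bases before a RefSeq start (GRCm38.p6, 5′ to 3′). Capitals mark matches to the letters searched.
Jarid2, chr13:44730524-44730773, plus strand: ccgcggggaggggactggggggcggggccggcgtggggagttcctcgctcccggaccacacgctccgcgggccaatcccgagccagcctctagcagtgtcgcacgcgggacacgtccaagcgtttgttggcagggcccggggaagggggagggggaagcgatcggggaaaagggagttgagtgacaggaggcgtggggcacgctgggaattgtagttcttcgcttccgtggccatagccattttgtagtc
Ezh2, chr6:47595031-47595280, minus strand: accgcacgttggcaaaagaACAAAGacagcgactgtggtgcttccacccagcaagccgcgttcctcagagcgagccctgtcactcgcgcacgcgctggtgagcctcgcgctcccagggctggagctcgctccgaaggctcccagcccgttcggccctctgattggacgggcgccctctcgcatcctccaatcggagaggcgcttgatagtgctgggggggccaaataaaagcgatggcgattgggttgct
Suz12, chr11:79992856-79993105, plus strand: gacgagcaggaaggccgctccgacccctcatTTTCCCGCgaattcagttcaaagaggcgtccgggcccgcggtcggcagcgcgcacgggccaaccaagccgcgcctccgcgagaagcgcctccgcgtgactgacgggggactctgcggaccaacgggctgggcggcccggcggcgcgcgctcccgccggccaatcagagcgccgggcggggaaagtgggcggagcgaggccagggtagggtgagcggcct
The letters searched, on both strands, were CATTGT and CTTTGT (the core that SOX proteins bind), ATGCAAAT (the octamer of POU factors), CCACACCC (KLF factors) and TTTGGCGC, TTTCCCGC and TTTCGCGC (E2F factors). Ezh2 held CTTTGT on the opposite strand 231 bases before the start used, and Suz12 held TTTCCCGC 219 bases before its start. The start used for Ezh2 lies inside the RefSeq gene (chr6:47530274-47595270), so most of that window, with the match, is within the gene. Neither of the 2 Jarid2 starts in the searched set had a match. CTTTGT was found before 16.5% of 32851 RefSeq starts and before 3 of the 10 starts of the members (Ezh2 and both starts of Mtf2), CATTGT before 10.7% and 0 of 10, CCACACCC before 3.2% and 1 of 10 (Rnf2), TTTCCCGC before 0.895% and 1 of 10, and ATGCAAAT before 1.6% and 0 of 10. These counts describe the letters in these windows and say nothing of binding. The Jarid2 window shown was 67.2% G and C with 23 CpG, against medians of 52.4% and 6 over all starts.

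The TU of Jarid2 spans chr13:44728794-44947382 on the plus strand (mm10), 218589 bp that contain the whole RefSeq gene. Its level was 1103 and 1334 CPM in NT, 1457 and 1332 CPM after 0.5 h, 1533 and 1523 CPM after 1 h, 1903 and 1656 CPM after 2 h, and 1653 and 2046 CPM after 6 h. The libraries of 1, 2 and 6 hpd all lay above both NT libraries, and those of 0.5 hpd overlapped them. Means were 1219 ± 164 CPM in NT and 1849 ± 278 CPM after 6 h (SD, n = 2). In edgeR's quasi-likelihood test the log2 fold change was 0.19 ± 0.134 (SE) after 0.5 h (adjusted p = 0.752) and 0.33 ± 0.134 after 1 h (adjusted p = 0.205). It reached 0.55 ± 0.134 after 2 h (adjusted p = 0.0171) and 0.60 ± 0.134 after 6 h (adjusted p = 0.00656). The joint test of the 4 time points gave an adjusted p of 0.0258, and the call was lost in 4 of the 10 fits that left out 1 library (NT replicate 1, either 1 hpd library or 6 hpd replicate 2). The slope over the ordered groups was 0.16 ± 0.0284 log2 units per step, with an adjusted p of 0.00102. These comparisons share the NT libraries.

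**Figure D1:**
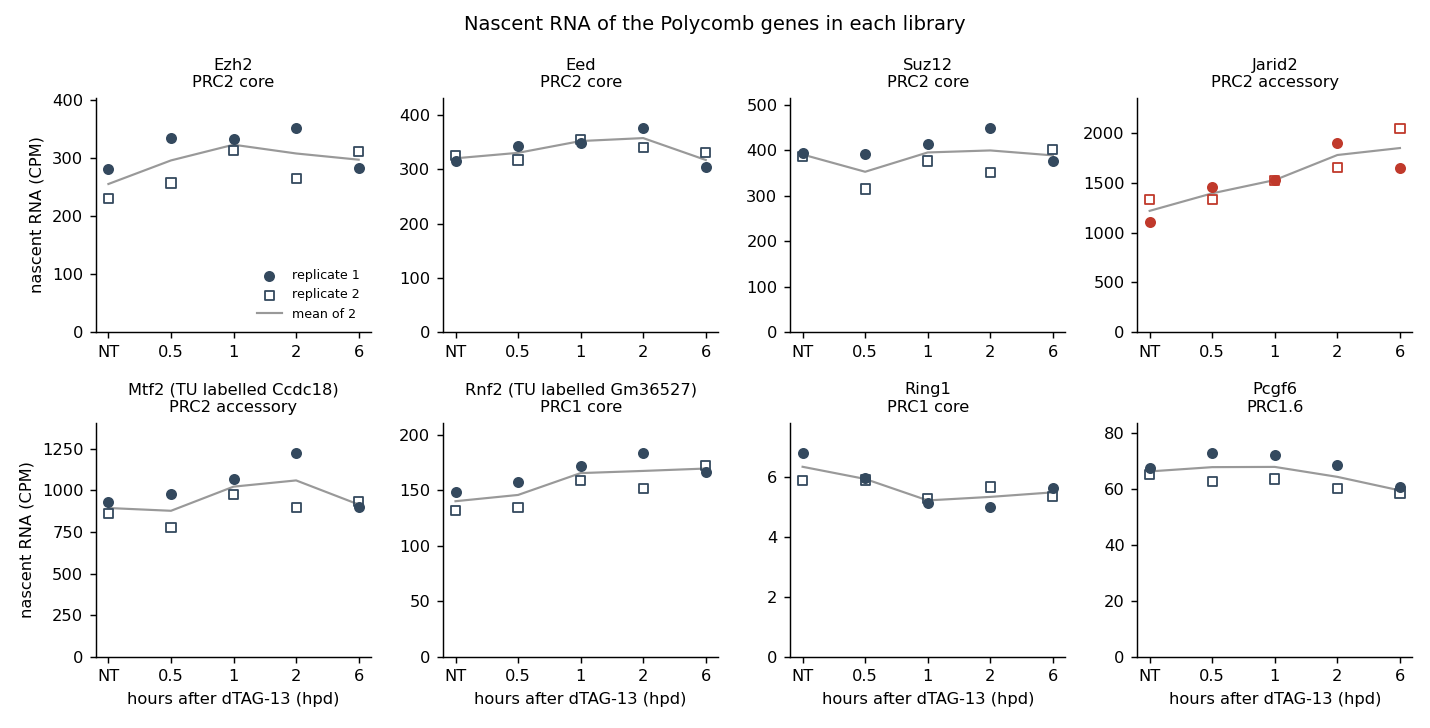
Nascent RNA in CPM (vertical axes, each from 0) in every library of NT and at 0.5 to 6 hpd (horizontal axes); filled circles are replicate 1, open squares replicate 2, and lines join the means of 2. Jarid2 climbs from 1219 to 1849 CPM, and for Mtf2 and Rnf2 the TU that covers the gene is plotted.

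Among all TUs tested, 4.26% were called higher after 2 h and 6.61% after 6 h, 19.8% had a trend that was called (9.13% rising, 10.6% falling) and 12.3% passed the joint test. Of the 6 tested members, 1 was called higher and 0 lower after 2 h, and the same held after 6 h, on the trend and in the joint test, in each case Jarid2. Both libraries lay above both NT libraries in 22.7% of all TUs after 2 h and in 27.5% after 6 h. Of 935 TUs with a symbol that span 100 to 300 kb and have a mean of at least 1000 fragments, 25.2% were called higher and 4.81% lower after 6 h (0.214% and 0% after 0.5 h), with a median log2 fold change of 0.26. Jarid2, with a mean of 26350 fragments, ranked 69 of these 935 by log2 fold change after 6 h. The part of TU length in its rise was not tested.

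**Figure D2:**
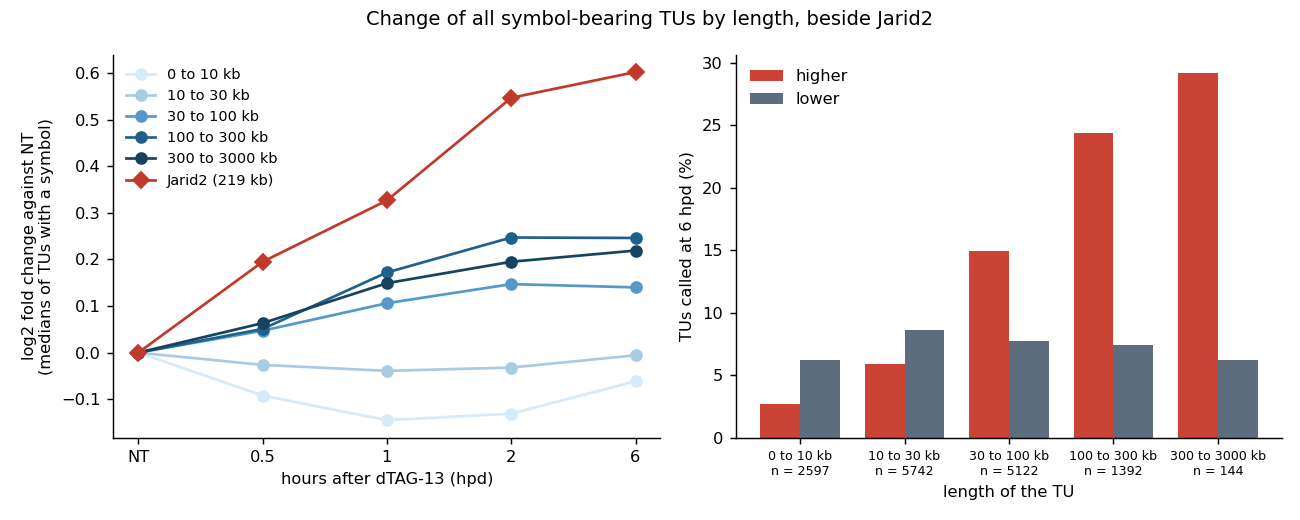
Left, median log2 fold change against NT (vertical axis) by hours after dTAG-13 for TUs with a symbol in 5 length classes, with Jarid2 in red; right, percent of each class called higher or lower after 6 h, with n below each class. The median of the 100 to 300 kb class is 0.25 after 6 h, where Jarid2 is at 0.60.

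Which libraries carry the Jarid2 call could be seen by leaving each out. Without NT replicate 1, the lower of the NT libraries, the log2 fold change was 0.41 after 2 h (adjusted p = 0.146) and 0.485 after 6 h (adjusted p = 0.0674). Without 2 hpd replicate 1 it was 0.44 after 2 h (adjusted p = 0.0886), and without 6 hpd replicate 2 it was 0.44 after 6 h (adjusted p = 0.0914). With only the NT and 2 hpd libraries in the fit, the value was 0.563 (adjusted p = 0.0898). The slope over time was called in each of the 10 fits that left out 1 library and ranged from 0.14 to 0.19. The ratio of Jarid2 fragments to the geometric mean of Ezh2, Eed and Suz12 fragments, which needs no library scaling, was 3.38 and 4.34 in NT, 4.10 and 4.52 after 0.5 h, 4.22 and 4.39 after 1 h, 4.89 and 5.24 after 2 h, and 5.20 and 5.91 after 6 h. All libraries of 2 and 6 hpd lay above all those of the earlier groups. How many other TUs separate in this way was not counted. The TUs of the 3 core genes span 40062 to 76703 bp, a shorter class than that of Jarid2. After 6 h the median log2 fold change of TUs with a symbol was 0.14 at 30 to 100 kb and 0.25 at 100 to 300 kb.

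Per kilobase of TU, the PRC2 genes stood in the order Eed, Suz12, Jarid2 and Ezh2 in NT, at 7.999 ± 0.203, 7.38 ± 0.118, 5.57 ± 0.748 and 3.33 ± 0.462 CPM per kb (SD, n = 2), and the NT libraries of neighbours in this order did not overlap. At 6 hpd Jarid2 stood at 8.46 ± 1.27 CPM per kb, and its libraries, at 7.56 and 9.36, overlapped those of Eed, at 7.58 and 8.26, and of Suz12, at 7.10 and 7.59. Pcgf6, at 2.13 ± 0.0497 CPM per kb, and Ring1, at 0.486 ± 0.0494, were the lowest of the 6 tested members in NT. These are levels of whole TUs, of which the RefSeq gene makes up 55.5% to 87.3% except for Ring1.

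The 3 core genes of PRC2 did not pass any test. Ezh2 (chr6:47519043-47595745, minus strand) was at 280 and 230 CPM in NT, 335 and 257 CPM after 0.5 h, 333 and 313 CPM after 1 h, 351 and 265 CPM after 2 h, and 282 and 312 CPM after 6 h. Its replicates differed widely in NT, after 0.5 h and after 2 h, and both libraries lay above NT at 1 and 6 hpd, as they did in 22.9% and 27.5% of all TUs. The log2 fold change was 0.34 ± 0.151 after 1 h (adjusted p = 0.251) and 0.22 ± 0.151 after 6 h (adjusted p = 0.353), with a 95% interval from -0.104 to 0.542 after 6 h. The value after 6 h was 0.383 without NT replicate 1 and 0.102 without NT replicate 2. With only the NT and 1 hpd libraries in the fit, Ezh2 was called after 1 h (0.36, adjusted p = 0.00883).

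Eed (chr7:89941216-89981277, minus strand) was at 315 and 326 CPM in NT, 344 and 317 CPM after 0.5 h, 349 and 356 CPM after 1 h, 375 and 340 CPM after 2 h, and 304 and 331 CPM after 6 h. The libraries of 1 and 2 hpd lay above NT, as in 22.9% and 22.7% of all TUs, and those of 6 hpd overlapped it, and the log2 fold change after 6 h was -0.01 ± 0.103 (adjusted p = 0.944), with a 95% interval from -0.234 to 0.206. Suz12 (chr11:79992216-80045110, plus strand) was at 395 and 386 CPM in NT, 390 and 314 CPM after 0.5 h, 413.5 and 376 CPM after 1 h, 447.5 and 351 CPM after 2 h, and 375.5 and 401 CPM after 6 h. Its replicates lay on both sides of NT at 1, 2 and 6 hpd, and the log2 fold change after 6 h was -0.007 ± 0.132 (adjusted p = 0.979), with an interval from -0.288 to 0.274. The intervals of Ezh2, Eed and Suz12 after 6 h all ended below the 0.60 of Jarid2, whose own interval ran from 0.316 to 0.888, and the differences between genes were not tested.

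MTF2 binds DNA and brings PRC2 to its sites. The Mtf2 gene, chr5:108065660-108109219 in RefSeq on the plus strand, lies wholly inside a TU of 191573 bp that is labelled Ccdc18 and runs on through the next gene, and Mtf2 makes up 22.7% of that TU. The TU held 928 and 859 CPM in NT, 977 and 777 after 0.5 h, 1067 and 976 after 1 h, 1223 and 895 after 2 h, and 898 and 931 after 6 h. Its libraries after 6 h included 1 library, at 898 CPM, that lay between those of NT, and the log2 fold change was 0.03 ± 0.146 (adjusted p = 0.902; 95% interval from -0.278 to 0.344). The value after 2 h was 0.25 (adjusted p = 0.324), and it was 0.00295 without 2 hpd replicate 1 and 0.44 (adjusted p = 0.0428) without 2 hpd replicate 2. The value belongs to both genes and cannot be assigned to Mtf2.

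RNF2 is the main PRC1 ligase of stem cells. The TU with the symbol Rnf2 is 140 bp long (chr1:151500722-151500861, minus strand) and held 1 to 3 fragments in each library. Of the RefSeq gene, 99.1% lies in the neighbouring TU labelled Gm36527 (chr1:151453267-151500710). That TU was at 148 and 132 CPM in NT, 157 and 134 after 0.5 h, 172 and 159 after 1 h, 184 and 151 after 2 h, and 167 and 173 after 6 h. Every library from 1 hpd on lay above both NT libraries, as both did in 22.9%, 22.7% and 27.5% of all TUs at 1, 2 and 6 hpd. The log2 fold change was 0.27 ± 0.12 after 6 h (adjusted p = 0.134), and the slope over time was 0.07 ± 0.0258 per step (adjusted p = 0.0507), so that neither was called. With only the libraries compared in the fit it was called after 1 h (0.258, adjusted p = 0.0472) and after 6 h (0.252, adjusted p = 0.049).

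Ring1 (chr17:34011627-34024680, minus strand) was the tested member with the lowest level per kb, with 69 to 153 fragments per library. The gene makes up 29.8% of this TU, which runs on past its end, so the value is that of the TU. It was at 6.80 and 5.89 CPM in NT, 5.97 and 5.90 after 0.5 h, 5.14 and 5.30 after 1 h, 5.01 and 5.67 after 2 h, and 5.62 and 5.36 after 6 h. All libraries of 1, 2 and 6 hpd lay below both NT libraries, as both did in 26.7%, 26.6% and 31% of all TUs. The log2 fold change after 6 h was -0.21 ± 0.18 (adjusted p = 0.46), with a 95% interval from -0.595 to 0.173.

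Pcgf6 (chr19:47019781-47050902, minus strand), whose product targets PRC1 to germline genes, was at 67.4 and 65.3 CPM in NT, 72.9 and 62.9 after 0.5 h, 72.3 and 63.6 after 1 h, 68.6 and 60.2 after 2 h, and 60.6 and 58.5 after 6 h. The libraries of 6 hpd lay below NT, as in 31% of all TUs, and those of the earlier times overlapped it. The log2 fold change after 6 h was -0.16 ± 0.113 (adjusted p = 0.377), with a 95% interval from -0.398 to 0.0849.

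**Figure D3:**
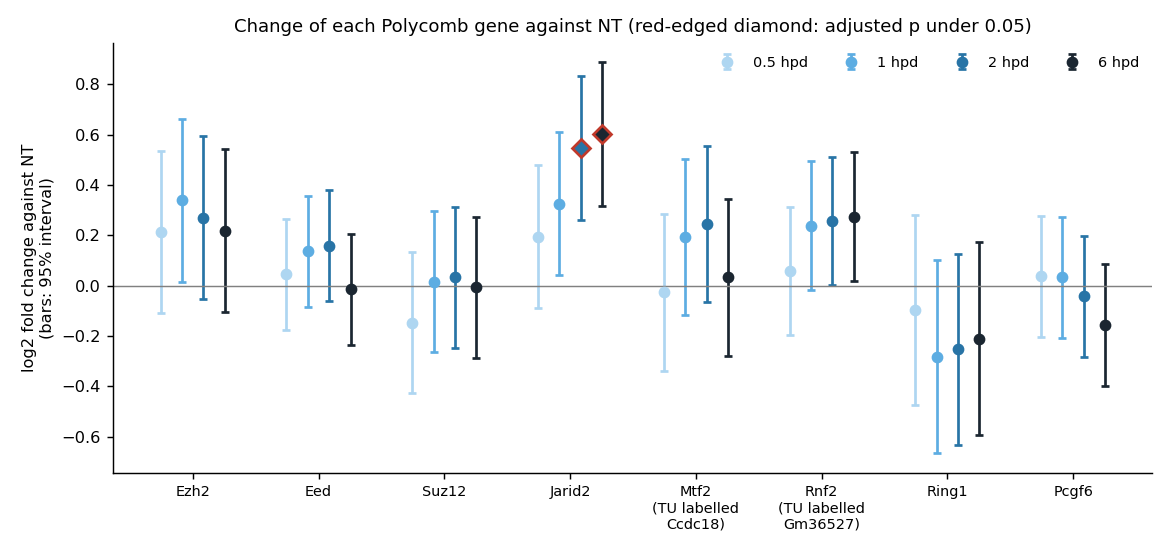
Log2 fold change against NT (vertical axis) of each member at 0.5, 1, 2 and 6 hpd, with 95% intervals as bars from the quasi-likelihood fit over 10 libraries. Diamonds with a red edge mark the values called, which are Jarid2 at 2 and 6 hpd (0.55 and 0.60).

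With all 10 libraries in the fit, no member was called at 0.5 or 1 hpd by edgeR or DESeq2, where all TUs were called at 1.31% and 5.75%. At an unadjusted p under 0.05, edgeR gave 0 members after 0.5 h and 2 after 1 h, Ezh2 and Jarid2. Between 0.5 and 1, 1 and 2, 2 and 6, and 1 and 6 hpd, 0 members were called by edgeR or DESeq2 and 0 had an unadjusted p under 0.05. Of all TUs 0.109%, 0.218%, 0.777% and 4.88% were called in these 4 comparisons (1.96% higher and 2.92% lower in the last), and the steps of the Jarid2 rise cannot be placed in time. Over the 6 tested members the median log2 fold change was 0.04, 0.09, 0.10 and -0.01 at 0.5, 1, 2 and 6 hpd, beside -0.02, -0.04, -0.04 and -0.04 over all TUs tested.

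The genes whose profile over the 10 libraries was most like that of Jarid2 were Gm364 (Pearson r = 0.979 of log2 CPM), Nf1 (r = 0.968), which restrains RAS, and Atg10 (r = 0.965), an enzyme of autophagy, among 11937 TUs with a symbol. Of these TUs 127 had r over 0.9. The points share libraries and depth, and the likeness is given as a description. Their log2 fold changes at 6 hpd, which the choice by likeness largely fixes, were 0.71 for Gm364, 0.76 for Nf1 and 0.74 for Atg10.

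On the strand opposite the 7 TUs with a member symbol lay 19 TUs, of which 15 were tested. Of these 15, 0 were called after 0.5 h, 1 after 1 h, 2 after 2 h and 3 after 6 h, the last being 20% beside 15.8% of all TUs (9.83% after 2 h). The strongest was a TU of 373 bp inside Jarid2 (chr13:44812053-44812425, minus strand), 81.3 kb downstream of the start of the gene in an intron and clear of every RefSeq exon of Jarid2. It held 21 and 23 fragments in NT, 16 and 7 after 0.5 h, 9 and 8 after 1 h, 5 and 5 after 2 h, and 3 and 4 after 6 h, or 1.41 and 1.67 CPM in NT, 0.624 and 0.599 after 0.5 h, 0.564 and 0.456 after 1 h, 0.253 and 0.292 after 2 h, and 0.211 and 0.233 after 6 h. Every depleted library lay below both NT libraries, as both did in 19%, 26.7%, 26.6% and 31% of all TUs at 0.5, 1, 2 and 6 hpd.

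Its log2 fold change was -1.31 after 0.5 h (adjusted p = 0.113), -1.59 after 1 h (adjusted p = 0.022), -2.47 after 2 h (adjusted p = 0.00134) and -2.75 ± 0.453 after 6 h (adjusted p = 0.000738). Among the 13462 tested TUs without a symbol, 3.65%, 5.82% and 10.8% were called lower at 1, 2 and 6 hpd. The call at 2 and 6 hpd held without any 1 library, and that after 1 h was lost in 4 of 10 such fits. The TU passed the filter through its NT libraries and 1 library of 0.5 hpd, where it was high, and its later libraries held 3 to 9 fragments. Without a count filter the values at 2 and 6 hpd were -2.46 (adjusted p = 0.00115) and -2.73 (adjusted p = 0.000635). These values are no separate support, as they rest on the same few fragments of a TU picked for its fall. Of its bases, 60.9% are masked as repeats in the reference, and the authors had removed alignments with a mapping quality under 10. The 300 bases around its 5′ end (GRCm38.p6) are shown because this is the TU that fell most beside a member. They hold no match to any of the letters searched. Of such windows at all 13462 TUs, 21.5% hold CTTTGT and 11.1% hold CATTGT.
TU inside Jarid2, chr13:44812276-44812575, minus strand: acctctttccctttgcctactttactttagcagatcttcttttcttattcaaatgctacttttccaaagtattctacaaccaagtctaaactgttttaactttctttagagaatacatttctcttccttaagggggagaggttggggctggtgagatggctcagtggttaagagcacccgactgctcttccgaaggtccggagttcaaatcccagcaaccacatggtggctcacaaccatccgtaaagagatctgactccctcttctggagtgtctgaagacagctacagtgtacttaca

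**Figure D4:**
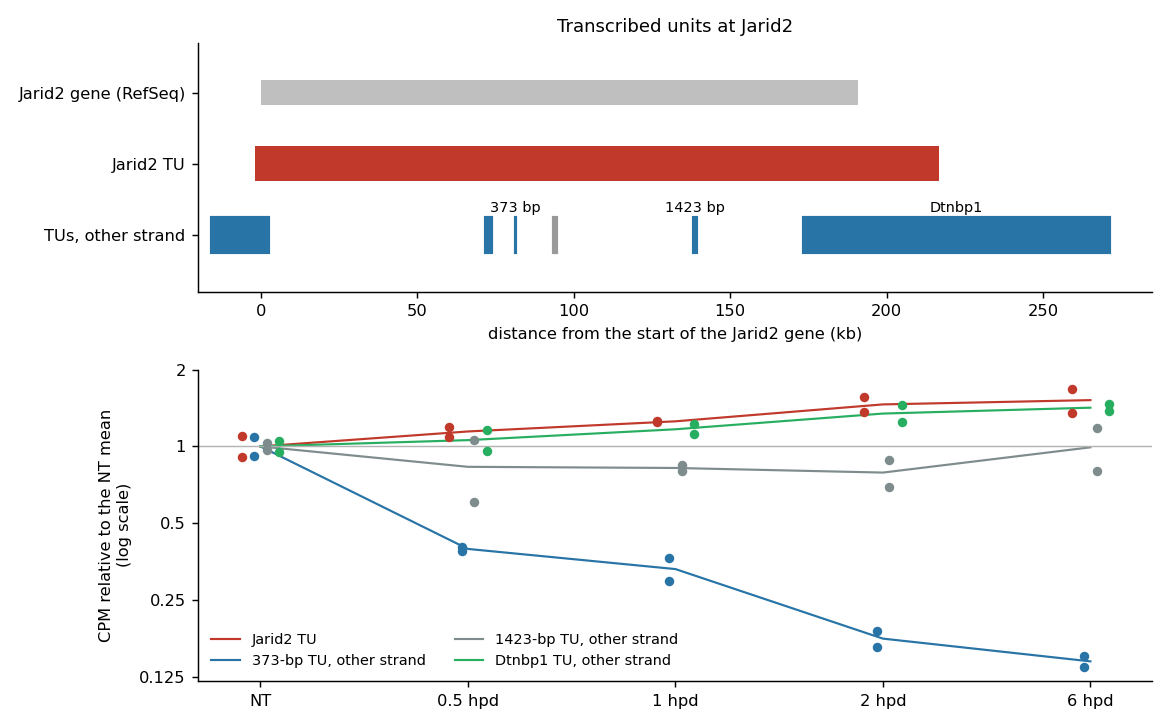
Top, the Jarid2 gene, its TU and the TUs of the other strand by distance in kb from the start of the gene (blue tested, grey not tested); bottom, CPM relative to the NT mean (log axis) of the Jarid2 TU and 3 of these TUs, with points for libraries and lines for means of 2. The 373-bp TU, with 3 to 9 fragments per library there, was called lower at 1, 2 and 6 hpd, and Jarid2 and Dtnbp1 were called higher at 2 and 6 hpd.

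Dtnbp1, which encodes a protein needed to form lysosome-related organelles, is transcribed toward Jarid2 (chr13:44904038-45002105, minus strand), and its TU overlaps the last 43345 bp of the Jarid2 TU. It was at 70.7 and 64.5 CPM in NT, 97.8 and 84.0 CPM after 2 h, and 92.7 and 99.0 CPM after 6 h, with all libraries of 2 and 6 hpd above NT. It rose by 0.43 on the log2 scale after 2 h (adjusted p = 0.0324) and by 0.50 ± 0.119 after 6 h (adjusted p = 0.00936). The call after 2 h was lost in 4 of 10 fits without 1 library, over which the value ranged from 0.313 to 0.519. Without NT replicate 2 the value after 6 h was 0.46 (adjusted p = 0.0888), and without 6 hpd replicate 2 it was 0.46 (adjusted p = 0.0791). Its profile had r = 0.874 with that of Jarid2. Fragments were counted by strand.

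Another TU on the other strand of Jarid2, chr13:44868747-44870169, was among the most heavily covered of all, at rank 5 of 28459 by NT CPM per kb. Of its bases 35.2% are masked as repeats, and whether its fragments stem from this place alone was not tested. Its 1423 bp held 971 and 1030 CPM in NT, 605 and 1060 after 0.5 h, 848 and 800 after 1 h, 696 and 885 after 2 h, and 1180 and 805 after 6 h. The replicates of 0.5 and 6 hpd differed more than the groups did, and it was not called at any time (log2 fold change after 6 h -0.01 ± 0.214, adjusted p = 0.978). At Suz12, the TU that runs back from the start of the gene (chr11:79986812-79993993) fell from 8.62 and 11.4 CPM in NT to 7.02 and 6.64 CPM after 6 h, by 0.55 on the log2 scale (adjusted p = 0.0477). Without NT replicate 2 its change was -0.32 (adjusted p = 0.391), and the call was lost in 7 of 10 fits that left out 1 library. On the strand opposite the TUs that cover Rnf2 and Mtf2, 5 further TUs were tested, of which 1 was called higher and 1 lower after 6 h, beside 6.61% and 9.2% of all TUs. Within 50 kb of the 7 TUs with a member symbol lay 36 tested TUs without a symbol, of which 0%, 2.78%, 5.56% and 13.9% were called over the 4 times, beside 0.943%, 4.23%, 7.17% and 13.2% of all TUs without a symbol. Near the TU covering Mtf2 lay 13 such TUs, of which 0 were called higher and 3 lower after 6 h, beside 10.8% of all TUs without a symbol called lower. Near the TU covering Rnf2 lay 4, of which 0 were called after 6 h.

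Other genes of the Polycomb and Trithorax machinery (4 lists) and classic targets of Polycomb (1 list) were followed, 101 genes of which 79 were tested, 13 of them targets. Over these 79, 0 rose and 2 fell after 0.5 h, 1 rose and 8 fell after 1 h, 9 rose and 10 fell after 2 h, and 14 rose and 11 fell after 6 h. Of all TUs, 0.527% and 0.787% were called higher and lower after 0.5 h, 2.15% and 3.61% after 1 h, 4.26% and 5.57% after 2 h, and 6.61% and 9.2% after 6 h. Of the 4228 TUs with a symbol and a mean of at least 1000 fragments, 0.993% and 0.686% were called higher and lower after 0.5 h. These shares were 5.56% and 2.89% after 1 h, 12.3% and 3.71% after 2 h, and 14.8% and 6.5% after 6 h. The lists were not matched to TUs of like length or depth. The balance of directions depended on the fit. With only the libraries compared, 13 rose and 10 fell after 1 h. When libraries were scaled by their totals alone, 4 rose and 13 fell after 2 h, and 11 rose and 13 fell after 6 h. DESeq2 gave 13 up and 9 down after 2 h. A replicate block gave 8 up and 12 down after 1 h, and 17 up and 12 down after 2 h. Single libraries moved these counts too. The 2 calls after 0.5 h became 0 without NT replicate 2 and 1 without either 0.5 hpd library. The 9 after 1 h became 5 without NT replicate 2, 2 or 3 without a 1 hpd library and 14 without 2 hpd replicate 2. Without either NT library, or without 2 hpd replicate 1, the calls after 2 h became fewer, and most of those lost were risers. The balance of directions after 2 h thus rested on single libraries. The calls after 6 h became fewer without NT replicate 2 and without either 6 hpd library.

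Of the 8 partners of PRC2, 3 rose and 1 fell after 6 h, with a median log2 fold change of 0.02 beside -0.04 over all TUs. Phf19, a paralogue of Mtf2 that also docks PRC2 on DNA, had a low level of 2.69 and 2.54 CPM in NT and 7.305 and 5.18 CPM after 6 h, and rose by 1.24 ± 0.251 on the log2 scale (adjusted p = 0.00341). Rbbp7, a histone-binding subunit, rose from 134 and 153 CPM to 223 and 242 CPM, a change of 0.69 ± 0.108 (adjusted p = 0.00046), and was already called after 1 h. Lcor rose by 0.41 ± 0.13 (adjusted p = 0.0463) and lost its call in 6 of 10 fits without 1 library. Epop (listed under the older symbol E130012A19Rik), which tempers PRC2 and belongs to the same form of the complex as MTF2, fell from 27.4 and 24.3 CPM to 19.6 and 17.5 CPM, by 0.48 (adjusted p = 0.0196). Leaving out NT replicate 1 (-0.381) or either 6 hpd library (-0.553 and -0.399) ended its call, as did DESeq2 (-0.455, adjusted p = 0.0576).

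Of the 32 tested partners of PRC1, 8 rose and 6 fell after 6 h, with a median of 0.03. Wdr5, a WD40-repeat protein shared by PRC1.6 and the Trithorax complexes, fell from 286 and 318 CPM in NT to 122 and 145 CPM, by 1.18 on the log2 scale (adjusted p = 5e-06), and was called at every time from 0.5 hpd (-0.59, adjusted p = 0.0139). Phc1, a Polyhomeotic subunit of canonical PRC1, fell from 174 and 180 CPM to 97.3 and 100.4 CPM, by 0.84 (adjusted p = 6.9e-05), also from 0.5 hpd on (-0.63, adjusted p = 0.00674). Wdr5 and Phc1 are the only genes of the lists called after 0.5 h, and those calls depended on single libraries, as given above. Fbrsl1, a component of PRC1.3 and PRC1.5, fell from 525 and 553 CPM to 310 and 364 CPM, by 0.68 (adjusted p = 0.000881).

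The risers of the same list included Scmh1, a canonical PRC1 subunit, from 63.7 and 68.2 CPM to 119.9 and 154.7 CPM (1.06 ± 0.133, adjusted p = 6.7e-05). Yaf2, the alternative to RYBP in variant PRC1, went from 10.2 and 10.2 CPM to 21.7 and 20.3 CPM (1.04 ± 0.142, adjusted p = 0.00014). Bmi1, which defines canonical PRC1.4, went from 12.9 and 9.88 CPM to 20.1 and 18.9 CPM (0.77 ± 0.148, adjusted p = 0.00234). Phc2 and Phc3, the paralogues of Phc1, rose by 0.47 and 0.41 (adjusted p = 0.0128 and 0.0398). Scml2 and Kdm2b also rose (adjusted p = 0.00596 and 0.0285), while Bcor, Hdac1 and Hdac2 fell (adjusted p = 0.00827, 0.0373 and 0.00211). Fits without 1 library are not given for these genes.

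Of the 10 tested genes of the H2A deubiquitinase PR-DUB, which removes the mark of PRC1, 2 rose after 6 h and 0 fell, with a median of 0.12. Foxk1 rose by 0.41 ± 0.0987 (adjusted p = 0.011; 0.382 and not called without 6 hpd replicate 1) and Asxl2 by 0.45 ± 0.132 (adjusted p = 0.0311), and Asxl2 lost its call in 6 of 10 fits without 1 library. Of the 16 genes of the Trithorax complexes and of the demethylases that remove the PRC2 mark, 1 rose and 2 fell after 6 h, with a median of 0.06. Dpy30 and Rbbp5, subunits that with WDR5 form the core of the H3K4 methyltransferases, fell by 0.53 and 0.58 (adjusted p = 0.00193 and 0.00261). Without 6 hpd replicate 1 the change of Rbbp5 was -0.452 (adjusted p = 0.054). Kmt2a, the catalytic subunit of one such complex, rose by 0.37 ± 0.117 (adjusted p = 0.0463) and lost its call in 5 of 10.

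Of 32 genes that are classic targets of Polycomb repression, 18 had a TU and 13 could be tested, the other 5 with a TU having failed the count filter, so nothing can be said of the change of the untested genes. Of the 13, 0 rose and 2 fell after 6 h, with a median of -0.20. Nes, which marks neural progenitors, fell by 0.97 (adjusted p = 0.00075), and Tbx3, which is active in naive stem cells, fell by 0.64 (adjusted p = 0.00272), or by 0.469 without NT replicate 2 (adjusted p = 0.0711). Gata6, the regulator of primitive endoderm, was at 1.14 and 1.16 CPM in NT and 2.32 and 1.86 CPM after 6 h. Its log2 fold change was 1.14 after 2 h (adjusted p = 0.0295) and 0.85 after 6 h (adjusted p = 0.0895). Nes and Gata6 are also on the neural and primitive endoderm marker lists, whose sums are given above (after 2 h that of primitive endoderm lay below NT), and the part of cell composition in these changes was not tested.

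**Figure D5:**
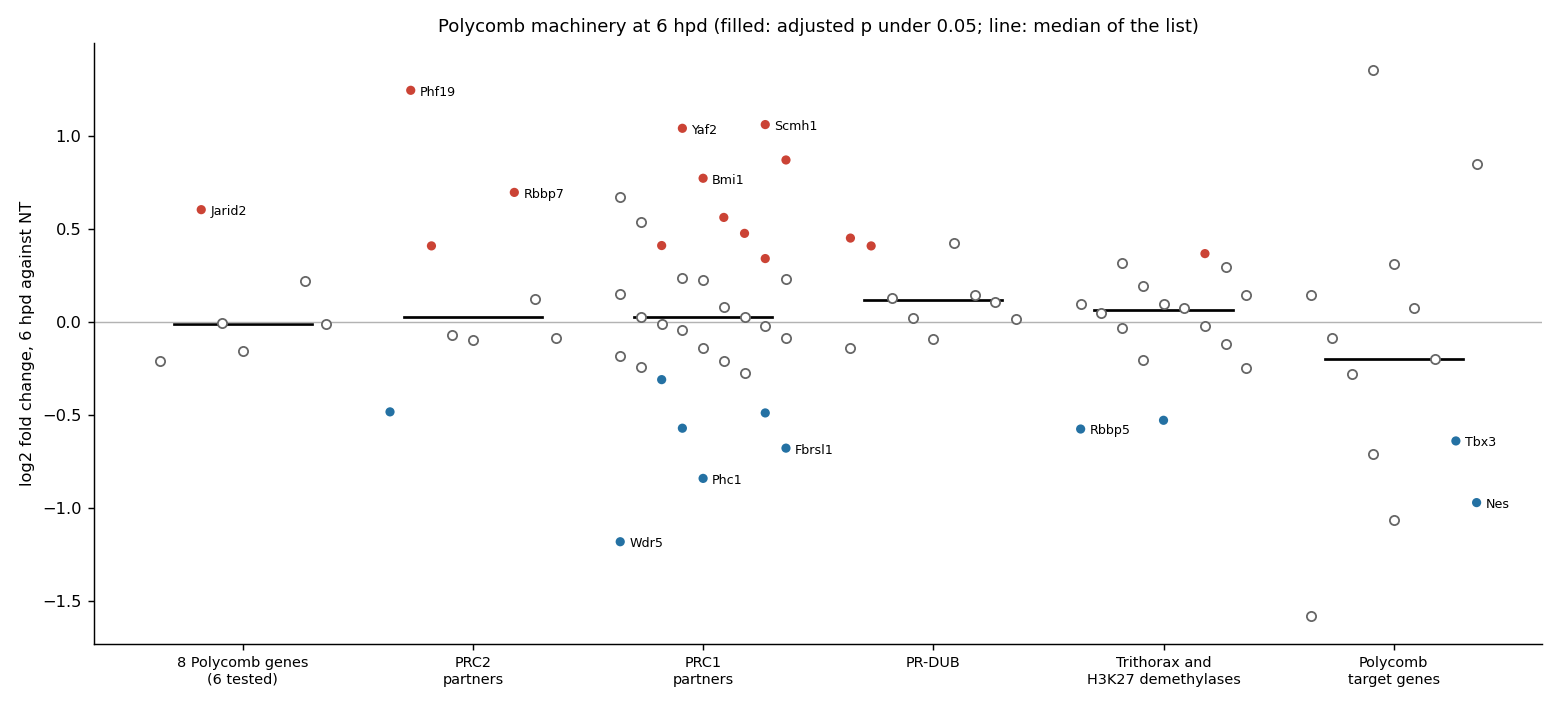
Log2 fold change after 6 h against NT (vertical axis) of each tested gene in the 8 Polycomb genes and in 5 lists of related genes; filled points passed the test (red higher, blue lower), open points did not, and lines are list medians. Jarid2 is the only filled point among the 6 tested Polycomb genes, and 14 of 79 genes in the other lists rose and 11 fell.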

How the data were processed

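TT_chem-seq was run on 10 libraries of SOX2-FKBP cells (NT, 0.5, 1, 2 and 6 hpd, 2 each, grouped by the labels). The deposited values are raw counts of fragments per TU. Before deposit the authors mapped reads to mm10 (BWA 0.7.17-r1188), dropped those with a mapping quality under 10 (SAMtools 1.10), removed duplicates (Picard 2.12.0) and defined TUs by strand. TU starts were turned to a count from 1. A TU entered the edgeR 4.0.16 fit (R 4.3.3; TMM factors, 1 coefficient per group, quasi-likelihood F-test) if over 10 fragments were seen in 2 or more libraries. Called TUs had a Benjamini-Hochberg adjusted p under 0.05 over 28459 TUs. The SE is the log2 fold change over the square root of F, and intervals use the total degrees of freedom of the fit, residual plus prior. The fit was tested on simulated data. Untested TUs held 0.316% of fragments.

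The members, lists and tests were chosen with earlier results of these data known. From each list up to 3 genes per direction were named, those with the smallest p after 6 h among genes called at any time, besides the 3 TUs most like Jarid2 and TUs on the strand opposite a member. Other genes named were chosen after their values were seen. Alternatives were DESeq2 1.42.0, RLE factors, total counts, other filters, only the libraries compared, a replicate block and leaving out each library. Length classes, windows at TU starts and the TUs covering Rnf2 and Mtf2 were added after seeing the data. RefSeq tables (GRCm38.p6) were matched by symbol and held all 8 members. A result for 1 gene of the lists is not reported here.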

Additional observations from a re-analysis of the deposited data

Results flagged for a closer look

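In 3 genes of the wider lists the test between 6 and 1 hpd passed, so that their levels differed between these times. Phf19 was 1.06 ± 0.24 higher after 6 h than after 1 h on the log2 scale (adjusted p = 0.0181), Scmh1 was 0.749 ± 0.13 higher (adjusted p = 0.00339) and Yaf2 was 0.54 ± 0.14 higher (adjusted p = 0.0323). Between these times 1.96% of all TUs were called higher and 2.92% lower.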

How the results depend on the processing

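Jarid2 stayed above NT in every setting, and its slope was called in each setting that gave one (a fit of only the libraries compared has none). With only the libraries compared in the fit, 2 members were called after 1 h (Ezh2 and Jarid2) and 0 after 2 h, and 23 genes of the wider lists after 1 h. A filter at a mean of 50 fragments left 0 members in the joint test. Total counts in place of TMM moved the median of all TUs after 2 h from -0.0396 to -0.155, gave a trend in 2 members, Jarid2 rising (0.128) and Pcgf6 falling (-0.0657, adjusted p = 0.0348), and 14 calls in the wider lists after 1 h. The labels tie the replicate numbers to no shared culture or day. Differences between replicates correlated from 0.0544 to 0.663 between groups and were positive in all 10 pairs of groups, but those of 6 hpd with 0.5 and 2 hpd were under 0.1, so the numbers were not taken as pairs. A replicate block gave 6, 20 (8 up, 12 down) and 29 (17 up, 12 down) calls in the wider lists after 0.5, 1 and 2 h and the same number of member calls. It also brought 3 calls, the TU covering Rnf2 after 6 h (0.28, adjusted p = 0.0349), Gata6 after 6 h (0.85, adjusted p = 0.0481) and the 373-bp TU after 0.5 h (-1.3, adjusted p = 0.049).

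Directions near 0 turned. After 6 h Eed was 0.0157 with DESeq2, 0.0156 with RLE factors and 0.0076 without a count filter, and Suz12 was 0.0223, 0.0223 and 0.0144. With total counts Suz12 was -0.0725 and -0.0901 after 1 and 2 h, Pcgf6 was -0.0551 after 1 h and the TU covering Mtf2 was -0.0567 after 6 h (-0.0175 with the filter at 50). The TU at the Suz12 start lost its call with DESeq2 (-0.52, adjusted p = 0.142), RLE factors (adjusted p = 0.0548), no count filter (adjusted p = 0.0666) and only the libraries compared (adjusted p = 0.0558), and Dtnbp1 after 2 h with only the libraries compared (0.446, adjusted p = 0.0642).

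Over fits that left out 1 library, member calls ranged from 0 to 1 after 2 h, from 0 to 1 after 6 h and from 0 to 1 in the joint test, and wider calls from 0 to 2, 2 to 14, 8 to 28 and 14 to 28 after 0.5, 1, 2 and 6 h. Values that turned ranged as follows. Eed went from -0.0112 to 0.113 after 0.5 h and from -0.0761 to 0.0601 after 6 h. Suz12 went from -0.309 to 0.0125, -0.0529 to 0.0831, -0.153 to 0.184 and -0.0543 to 0.0536 over the 4 times. Ring1 went from -0.188 to 0.0137 after 0.5 h, and Pcgf6 from -0.0753 to 0.148, -0.0608 to 0.124 and -0.14 to 0.0342 after 0.5, 1 and 2 h. The TU covering Mtf2 went from -0.199 to 0.141 after 0.5 h and from -0.00322 to 0.105 after 6 h, and that covering Rnf2 from -0.0585 to 0.178 after 0.5 h. The cause was not tested in any of these cases. Ring1 held 69 to 153 fragments per library, and the 373-bp TU inside Jarid2 held 3 to 23.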
